A study of Mus musculus with 8 samples.

Results

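The genes described are 33 mouse genes of cholesterol synthesis, of fatty acid synthesis and desaturation, and of their control. They were taken by name from the 2 pathways, but with earlier results of these data known. They comprise 17 sterol synthesis enzymes, 10 fatty acid synthesis genes and 6 control and transport genes. A level was obtained for 32 of the 33, out of 22963 genes with a level in all, and 29 of them were tested, out of 10278 genes tested. RNA was sequenced from Bruce 4 cells, a wild-type embryonic stem cell line of male C57BL/6J mice, that had spent 2 weeks in 1 of 4 conditions: gelatin coating with Std medium, gelatin with 2i, LN511 coating with Std, and LN511 with 2i. Each condition had 2 libraries, named in the design as biological replicates, and all 8 came from the same line, so p-values measure the spread between these libraries and not between lines. LN511 is laminin-511, a basement membrane protein to which stem cells attach through integrins. 2i is, by its usual meaning, a medium with inhibitors of MEK and GSK3 that holds embryonic stem cells in the naive state, and Std is the standard medium of the study, whose composition was not given in the sources used here.

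Cholesterol is built from acetyl-CoA through the mevalonate pathway: its early enzymes make mevalonate, kinases and a decarboxylase turn it into isoprene units, these are joined into squalene, and squalene is closed into lanosterol and trimmed to cholesterol. Fatty acids are built from the same acetyl-CoA by ATP citrate lyase, acetyl-CoA carboxylase and fatty acid synthase, and are then lengthened by elongases and given double bonds by desaturases. Both branches are under the SREBP transcription factors, which the escort protein SCAP carries out of the endoplasmic reticulum when sterols are low and which the INSIG proteins hold back when sterols are high. Embryonic stem cells divide fast and need both products for membranes.

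Levels are in FPKM (fragments counted per length of transcript and per depth of library), added up for each gene from its RefSeq transcripts, so they are scaled to transcript length and can be set side by side between genes. A difference is given on the log2(FPKM + 1) scale, which understates changes of low genes, and a gene is called where limma's moderated test gives a Benjamini-Hochberg adjusted p under 0.05 over all 10278 genes tested in that comparison. The values come from bulk RNA, in which fewer cells that express a gene and less RNA per cell cannot be told apart. The 4 comparisons of 2 groups share libraries: gelatin Std, for example, is the control of a medium and of a coating comparison.

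The library depths, read from the steps between low FPKM values, lay within 1.19-fold of each other, and 1 fragment on a transcript of 2000 bases was worth about 0.179 to 0.217 FPKM. Replicate 1 of gelatin 2i stood apart in having 1654 assembled transcripts above 0, against 4743 to 5438 in the other libraries. Embryonic stem cell markers were present throughout: Pou5f1, Sox2, Nanog, Zfp42 and Esrrb (5 of 6 listed had a level) summed to 1171 to 1238 FPKM in gelatin Std, 1781 to 1902 in gelatin 2i, 1314 to 1362 in LN511 Std and 1986 to 2188 in LN511 2i. All 6 trophoblast markers together reached 3.62 to 3.89, 8.39 to 11.3, 13.0 to 16.9 and 4.81 to 7.61 FPKM in the same order, with Elf5 at 0 in every group but LN511 2i and Hand1 at 0 in both 2i groups. The 4 neuroectoderm markers reached 11.2 to 11.6, 5.65 to 6.02, 13.1 to 23.1 and 7.62 to 8.16 FPKM, with Pax6 or Pax3 at 0 in each group. Fibroblast and primitive endoderm markers (6 each) stayed within 1.54 to 4.80 and 0.678 to 4.38 FPKM. The part of any such cells in the differences given here was not tested.

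Between the media Idi1 was lower in 2i on both coatings, while Ebp, Hmgcs1 and Elovl5 were higher. Of these, Hmgcs1 was called in no comparison of 2 groups, and Elovl5 only on LN511. All answer to SREBPs by textbook knowledge, and the sequences upstream of these 3 sterol synthesis genes and 1 fatty acid gene are shown as examples. Those of Pmvk, Nsdhl and Acly, which were also higher in 2i on both coatings, are not shown. Each is the 250 bases before the RefSeq gene start (GRCm38.p6, the assembly that mm10 names), 5′ to 3′ on the strand of the gene: Ebp at chrX:8193513-8193762 on the minus strand, Idi1 at chr13:8885356-8885605, Hmgcs1 at chr13:119690101-119690350 and Elovl5 at chr9:77917115-77917364, all 3 on the plus strand. Capitals mark matches, on either strand, to the sterol regulatory element core TCACNCCAC, the E-box CACGTG, the CCAAT box to which NF-Y binds and the GC box GGGCGG to which Sp1 binds.
Ebp: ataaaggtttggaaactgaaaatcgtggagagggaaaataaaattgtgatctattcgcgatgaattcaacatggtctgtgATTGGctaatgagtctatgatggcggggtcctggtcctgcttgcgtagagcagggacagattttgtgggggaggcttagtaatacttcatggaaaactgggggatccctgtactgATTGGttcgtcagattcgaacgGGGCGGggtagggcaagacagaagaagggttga
Idi1: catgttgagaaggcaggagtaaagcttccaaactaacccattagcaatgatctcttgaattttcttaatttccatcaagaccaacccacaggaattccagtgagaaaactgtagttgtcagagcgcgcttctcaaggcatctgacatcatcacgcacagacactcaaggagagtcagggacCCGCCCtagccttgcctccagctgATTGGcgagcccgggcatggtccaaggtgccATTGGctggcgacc
Hmgcs1: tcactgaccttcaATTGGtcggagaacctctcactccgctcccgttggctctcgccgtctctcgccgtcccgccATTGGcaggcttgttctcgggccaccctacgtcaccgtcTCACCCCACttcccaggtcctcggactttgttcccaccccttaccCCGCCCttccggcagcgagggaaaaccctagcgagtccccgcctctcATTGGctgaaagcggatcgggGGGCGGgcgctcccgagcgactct
Elovl5: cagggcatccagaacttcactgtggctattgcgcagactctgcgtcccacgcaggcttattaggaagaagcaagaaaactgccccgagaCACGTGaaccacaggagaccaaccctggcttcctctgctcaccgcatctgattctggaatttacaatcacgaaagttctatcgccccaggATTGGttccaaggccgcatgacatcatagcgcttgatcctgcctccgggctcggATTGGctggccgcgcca
Ebp and Idi1, which went opposite ways with the medium, each held 2 CCAAT boxes and 1 GC box in these letters. Hmgcs1 held the element core, 137 bases before the start, with 3 CCAAT boxes and 2 GC boxes. No other of the 26 listed genes with a window held this core. Elovl5 held an E-box 161 bases before the start and 2 CCAAT boxes. Of the 34 windows of the 26 listed genes that matched the promoter table, CCAAT was present in 22 (64.7%), against 33.8% of all 32851 windows of the same length. GGGCGG was present in 24 (70.6%), against 32.7%. CACGTG was present in 6 (17.6%), against 6.02%, and TCACNCCAC in 1 (2.94%), against 1.05%. A match is a run of letters, not a bound site, and windows of 1 gene can overlap.

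Among the sterol synthesis enzymes the levels ran from 2.87 FPKM for Hsd17b7 to 111 FPKM for Fdps as means over the 8 libraries. Among the enzymes up to farnesyl diphosphate, 3 were high: Fdps (farnesyl diphosphate synthase) ranged from 91.0 to 135 FPKM over the libraries, Hmgcs1 (HMG-CoA synthase) from 65.7 to 93.4 and Idi1 (isopentenyl diphosphate isomerase) from 42.8 to 63.9. Sqle (squalene epoxidase) at 37.8 to 50.5 FPKM and Msmo1 (a sterol C4 demethylase) at 33.6 to 51.4 were of the same order and could not be ranked against each other beyond their spread. Mvd (mevalonate diphosphate decarboxylase) at 21.3 to 28.3, Cyp51 (lanosterol 14-demethylase) at 16.9 to 21.8 and Fdft1 (squalene synthase, at a locus shared with Ctsb) at 15.9 to 36.1 came next. Lss (lanosterol synthase) at 5.77 to 12.9 FPKM, Sc5d (sterol C5 desaturase) at 7.01 to 9.39 and Mvk (mevalonate kinase) at 1.99 to 16.1 were low.

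The sterol enzymes called between the media went in opposite directions. Ebp, which encodes the sterol isomerase that shifts a double bond late in the pathway, was several-fold higher in 2i on both coatings. Idi1, earlier in the pathway, was lower in 2i on both. On gelatin 1 of 15 tested enzymes was called higher and 1 lower, and on LN511 2 were higher and 1 lower. Over all 29 tested genes of both branches and their control, 3 were called higher on gelatin where 8.2% of all genes were, and 1 lower where 7.2% were. On LN511 the counts were 6 higher where 8.58% of all genes were, and 1 lower where 9.95% were. The share of sterol enzymes called was thus near that of all genes on either coating.

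Ebp stood on gelatin at 8.33 and 5.66 FPKM in Std and at 31.7 and 24.1 in 2i, and on LN511 at 5.62 and 3.71 in Std and at 24.1 and 24.1 in 2i. All 4 libraries in 2i lay above all 4 in Std, with a wide gap between them. The mean was 3.99-fold higher in 2i on gelatin, a log2 difference of 1.86 ± 0.26 (SE, n = 2 against 2; limma adjusted p = 0.00568), and 5.17-fold higher on LN511, a log2 difference of 2.17 ± 0.26 (adjusted p = 0.0027). No other gene is annotated over Ebp (chrX:8185329-8193512), and the call held in each of the 8 fits that left out 1 library on either coating.

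Idi1 stood on gelatin at 59.1 and 58.8 FPKM in Std and at 47.5 and 44.7 in 2i, and on LN511 at 63.9 and 61.0 in Std and at 42.8 and 43.0 in 2i. The 4 libraries in 2i lay below all 4 in Std, and the replicates were close. The log2 difference was -0.35 ± 0.09 on gelatin (limma adjusted p = 0.0433) and -0.53 ± 0.09 on LN511 (adjusted p = 0.00966). The call on gelatin was lost in 7 of the 8 fits without a library, with adjusted p up to 0.167 (0.103 without gelatin 2i replicate 1, the library with few assembled transcripts), and that on LN511 in 1, without LN511 Std replicate 1 (0.0571). The gelatin call was also lost when only the 2 groups were fitted (0.0728) or only the highest transcript of each gene was used (0.0524). Idi1 itself has 1 RefSeq transcript row, so its values and its difference were unchanged in the latter fit. Idi1 lies at chr13:8885606-8892396 with no other gene annotated over it.

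Pmvk, the phosphomevalonate kinase that acts before Idi1, stood on gelatin at 22.2 and 21.9 FPKM in Std and at 34.5 and 26.5 in 2i, and on LN511 at 23.2 and 29.0 in Std and at 41.2 and 42.1 in 2i. Within each coating the 2i libraries lay above the Std ones, but gelatin 2i replicate 2 was below LN511 Std replicate 2. The log2 difference was 0.66 ± 0.17 on LN511 (limma adjusted p = 0.0368) and 0.44 ± 0.17 on gelatin, where the gene was not called (adjusted p = 0.13). The LN511 call was lost in 6 of 8 fits without a library, with adjusted p up to 0.163, and when only the 2 groups were fitted (0.0714).

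The other sterol enzymes did not pass in either medium comparison. Several nevertheless had libraries that did not overlap between the media. On gelatin 9 of the 15 enzymes were higher in both 2i libraries than in both Std libraries and 2 were lower (Idi1 and Lss), and on LN511 6 were higher and 3 lower (Idi1, Lss and Hsd17b7). Over the 29 genes 18 were higher without overlap on gelatin (29.9% of all genes were) and 4 lower (29.3% of all), and on LN511 14 higher (27.7% of all) and 4 lower (32% of all). Nsdhl, a sterol dehydrogenase of C4 demethylation, stood on gelatin at 11.2 and 9.20 FPKM in Std and at 14.8 and 15.4 in 2i, and on LN511 at 7.16 and 8.83 in Std and at 13.6 and 10.4 in 2i. Its log2 difference was 0.53 ± 0.21 on gelatin and 0.52 ± 0.21 on LN511 (adjusted p = 0.141 and 0.133). Lss went the other way, at 12.9 and 12.2, then 10.3 and 9.68 FPKM on gelatin and 7.99 and 9.60, then 6.44 and 5.77 on LN511, with log2 differences of -0.30 ± 0.18 and -0.46 ± 0.18 (adjusted p = 0.327 and 0.136).

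Averaging the medium difference over the coatings, a comparison added after the data were seen, gave 4 sterol enzymes called higher (Hmgcs1, Pmvk, Nsdhl and Ebp) and 1 lower (Idi1). With the fatty acid genes Acly, Scd1, Scd2 and Elovl5 that made 8 of 29 higher where 13.6% of all genes were, and 1 lower where 14.3% were. The averaged call of Elovl5 was lost in most of the fits that left out 1 library, where its log2 difference ran from 0.433 to 0.634. The averaged log2 difference was 0.21 ± 0.06 for Hmgcs1 (limma adjusted p = 0.0488) and 0.53 ± 0.15 for Nsdhl (adjusted p = 0.037), and each call was lost in 7 of 8 fits without a library and with the replicate number as a block (0.0717 and 0.0587). The median log2 difference of the 15 enzymes was 0.18 on gelatin, beside 0.00 over all tested genes, and 0.15 on LN511, beside -0.04.

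**Figure D1:**
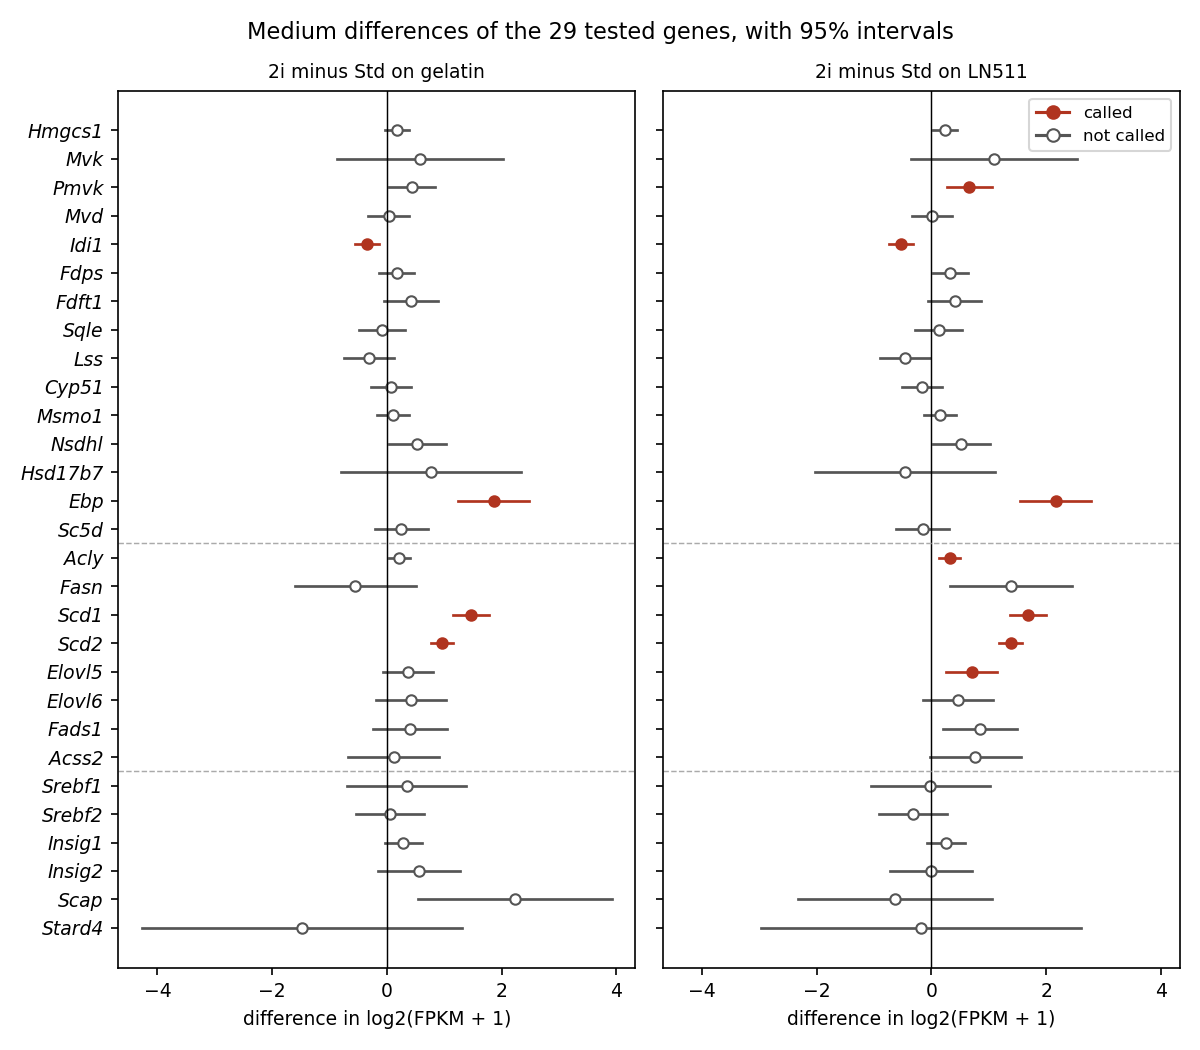
Differences in log2(FPKM + 1) between 2i and Std medium for the 29 tested genes, on gelatin (left) and LN511 (right), with sterol synthesis enzymes, fatty acid synthesis genes and control and transport genes separated by dashed lines from top to bottom. Points are estimates, bars are 95% intervals from limma and filled red points are called at an adjusted p under 0.05. Ebp, Scd1 and Scd2 lie to the right and Idi1 to the left of 0 in both panels, while Scap and Stard4, whose libraries include zeros, have the widest bars.

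Hmgcs1 was made up of 2 RefSeq transcripts that did not move alike. NM_001291439 stood on gelatin at 51.9 and 48.4 FPKM in Std and at 60.2 and 60.5 in 2i, and on LN511 at 51.0 and 39.9 in Std and at 62.7 and 58.4 in 2i. It lay higher in the 4 libraries in 2i than in the 4 in Std. NM_145942 stood at 30.0 and 34.6, 33.2 and 32.7, 23.5 and 25.8, and 20.2 and 23.8 FPKM in the same order, so that it separated the coatings, with all 4 LN511 libraries below all 4 gelatin ones. How the fragments were shared out between the transcripts is an estimate, and no test was made of single transcripts.

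Tm7sf2, a sterol C14 reductase, was set aside from the test because of its zeros. On gelatin it stood at 9.50 and 3.94 FPKM in Std and at 9.71 and 18.8 in 2i, and on LN511 it was listed at 0 in both Std libraries and stood at 11.4 and 10.5 in 2i. Zeros beside values of 5 FPKM or more can be failed estimates in these files, and the gene overlaps Vps51, so no fold is given. When such genes were kept, Tm7sf2 was called higher in 2i on LN511 (adjusted p = 0.00551) and in the averaged medium comparison (0.00459), and lower on LN511 in Std (0.0458), calls that rest on the zeros in LN511 Std, and not in 2i on gelatin (0.218). Hsd17b7, the ketone reductase of C4 demethylation, was tested and not called, at 3.71 and 0, 2.91 and 2.48, 3.72 and 4.60, and 2.42 and 3.08 FPKM in the order of conditions used above. Its 0 in gelatin Std replicate 2 made the intervals wide. Dhcr7, the last reductase of the pathway, had no matched transcript row. The deposited gene table lists Dhcr7 at 11.1 FPKM in LN511 2i replicate 2 and at 0 in the other 7 libraries.

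In the fatty acid branch the stearoyl-CoA desaturases were the genes called in both medium comparisons. Scd1 and Scd2, which put the first double bond into newly made saturated fatty acids, were higher in 2i on both coatings, and lower on LN511 than on gelatin in Std medium. Acly and Elovl5 were higher in 2i on LN511. All other tested genes of the branch missed the threshold in the 4 comparisons. On gelatin 2 of the 8 tested genes were called higher in 2i by limma, where 8.2% of all genes were, and 0 lower, where 7.2% were. On LN511 4 were called higher, where 8.58% of all genes were, and 0 lower, where 9.95% were. At an unadjusted p under 0.05, 0 of the 8 were lower on either coating, where 14.6% of all genes were on gelatin and 17.7% on LN511. Among only 8 genes a count of 0 lower lies near these shares and is no result about the branch.

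Scd1 stood on gelatin at 15.7 and 15.5 FPKM in Std and at 42.3 and 47.6 in 2i, and on LN511 at 8.96 and 8.72 in Std and at 32.4 and 28.9 in 2i. The 4 conditions did not overlap, and their order was gelatin 2i, LN511 2i, gelatin Std, LN511 Std. The mean was 2.89-fold higher in 2i on gelatin, a log2 difference of 1.47 ± 0.13 (SE, n = 2 against 2; limma adjusted p = 0.00117), and 3.47-fold higher on LN511, a difference of 1.68 ± 0.13 (adjusted p = 0.000546).

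Scd2, the more abundant desaturase in these cells, stood on gelatin at 73.9 and 76.1 FPKM in Std and at 145 and 150 in 2i, and on LN511 at 46.0 and 44.7 in Std and at 125 and 115 in 2i. It followed the same order of conditions, again with no overlap. The mean was 1.96-fold higher in 2i on gelatin, a log2 difference of 0.96 ± 0.08 (limma adjusted p = 0.000971), and 2.64-fold higher on LN511, a difference of 1.38 ± 0.08 (adjusted p = 0.000212). The medium calls of Scd1 and Scd2 held on both coatings in each of the 8 fits without 1 library. The genes are neighbours on chromosome 19, Scd2 at chr19:44293676-44306864 and Scd1 at chr19:44394450-44407709, and Mir5114 is annotated within Scd2.

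Acly, ATP citrate lyase, which makes the acetyl-CoA that both branches use, had the highest mean level of the 32 genes at 115 FPKM. It stood on gelatin at 115 and 106 FPKM in Std and at 126 and 131 in 2i, and on LN511 at 100 and 98.4 in Std and at 126 and 123 in 2i. The libraries in 2i lay above those in Std, by a small margin relative to the level. The log2 difference was 0.32 ± 0.08 on LN511 (limma adjusted p = 0.0315) and 0.22 ± 0.08 on gelatin, where it was not called (adjusted p = 0.105). The LN511 call was lost in 6 of 8 fits without a library, with quantile normalization (adjusted p = 0.0568) and when only the highest transcript was used (0.377) or only the 2 groups were fitted (0.0769).

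In Std medium its 2 RefSeq transcripts differed between the coatings, though how fragments were shared out between them is an estimate and was not tested. NM_134037 stood on gelatin at 46.0 and 53.8 FPKM in Std and at 48.7 and 42.4 in 2i, and on LN511 at 26.4 and 25.5 in Std and at 30.2 and 44.3 in 2i. NM_001199296 stood at 68.6 and 52.0, 77.6 and 88.2, 73.8 and 72.9, and 95.5 and 78.3 FPKM. NM_134037 thus made up 40.2% and 50.9% of the sum in gelatin Std but 26.3% and 25.9% in LN511 Std, with no overlap there, while in 2i the shares were 38.6% and 32.4% on gelatin and 24.0% and 36.1% on LN511 and overlapped.

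**Figure D2:**
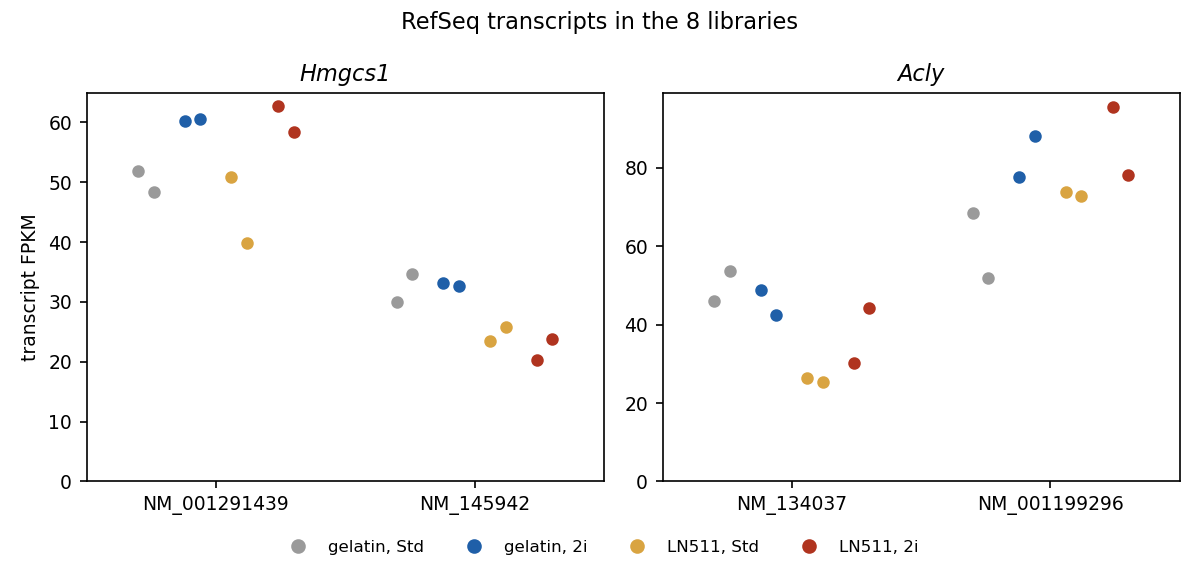
FPKM of the RefSeq transcripts of Hmgcs1 (left) and Acly (right) in the 8 libraries, a point for each library, coloured by coating and medium. Within Hmgcs1, NM_145942 lies at 30.0 to 34.6 FPKM in the gelatin libraries and at 20.2 to 25.8 in the LN511 libraries, and within Acly the LN511 Std libraries have the lowest NM_134037, at 26.4 and 25.5 FPKM.

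Elovl5, an elongase that lengthens polyunsaturated fatty acids, stood on gelatin at 23.6 and 24.4 FPKM in Std and at 27.1 and 36.1 in 2i, and on LN511 at 19.5 and 25.5 in Std and at 38.4 and 35.4 in 2i. The 4 libraries in 2i lay above the 4 in Std. The log2 difference was 0.70 ± 0.18 on LN511 (limma adjusted p = 0.0431) and 0.37 ± 0.18 on gelatin (adjusted p = 0.242). The LN511 call was lost in 6 of 8 fits without a library and with other settings for low genes (adjusted p = 0.05 to 0.0589), and when only the 2 groups were fitted (0.0842). The non-coding gene Gm34771 is annotated over part of Elovl5.

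Fasn, the synthase that builds palmitate, had the least even replicates among the abundant genes. It stood on gelatin at 73.1 and 73.7 FPKM in Std and at 35.1 and 70.7 in 2i, and on LN511 at 47.9 and 19.5 in Std and at 88.6 and 76.2 in 2i. It was lowest in LN511 Std and in gelatin 2i replicate 1, the library with few assembled transcripts. The log2 difference was -0.55 ± 0.45 on gelatin and 1.39 ± 0.45 on LN511 (adjusted p = 0.47 and 0.0765), and Fasn was not called in any comparison.

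Fads1, the delta-5 desaturase of polyunsaturated fatty acids, was higher in each 2i library than in the Std libraries of its coating, at 19.4 and 19.3, then 29.0 and 23.0 FPKM on gelatin and 14.1 and 9.71, then 27.7 and 17.1 on LN511. Its log2 difference was 0.84 ± 0.27 on LN511 and was not called (adjusted p = 0.0765), although a fit with the replicate number as a block put it at 0.0421. Elovl6, which lengthens palmitate, ranged from 24.3 to 52.3 FPKM, and its replicates overlapped between the media on LN511. Acss2, which makes acetyl-CoA from acetate, was the lowest of the tested branch genes at 1.05 to 3.32 FPKM. Neither was called, with log2 differences of 0.42 and 0.12 on gelatin and 0.46 and 0.77 on LN511 for Elovl6 and Acss2.

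Acaca, acetyl-CoA carboxylase, and Fads2, the delta-6 desaturase, were set aside in the same way because of zeros, and neither was called when kept. Acaca stood on gelatin at 0 and 12.3 FPKM in Std and at 4.85 and 9.16 in 2i, and on LN511 at 14.9 and 2.89 in Std and at 6.82 and 2.91 in 2i. Fads2 stood at 8.36 and 10.5, 0 and 7.65, 0 and 7.17, and 9.87 and 0 FPKM. Their replicates differed more than the conditions did, so that nothing can be said of the medium or the coating.

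The 8 tested genes of the branch had a median log2 difference of 0.38 on gelatin and of 0.81 on LN511, beside 0.00 and -0.04 over all tested genes, and 7 of 8 were above 0 on gelatin and 8 of 8 on LN511. The sums of levels show how the desaturases and the other genes shared in this. Scd1 and Scd2 together summed on gelatin to 89.6 and 91.6 FPKM in Std and to 187 and 197 in 2i, and on LN511 to 55.0 and 53.4 in Std and to 158 and 144 in 2i. The other 6 genes summed to 264 and 257, 261 and 306, 220 and 179, and 335 and 287 FPKM, so on gelatin replicate 1 of 2i fell within the range of Std, and on LN511 both 2i libraries lay above both Std libraries. The 15 sterol enzymes summed on gelatin to 489.9 and 479 FPKM in Std and to 551 and 542 in 2i, and on LN511 to 449 and 420.0 in Std and to 481 and 529 in 2i, a narrower range relative to its level than that of the desaturases.

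**Figure D3:**
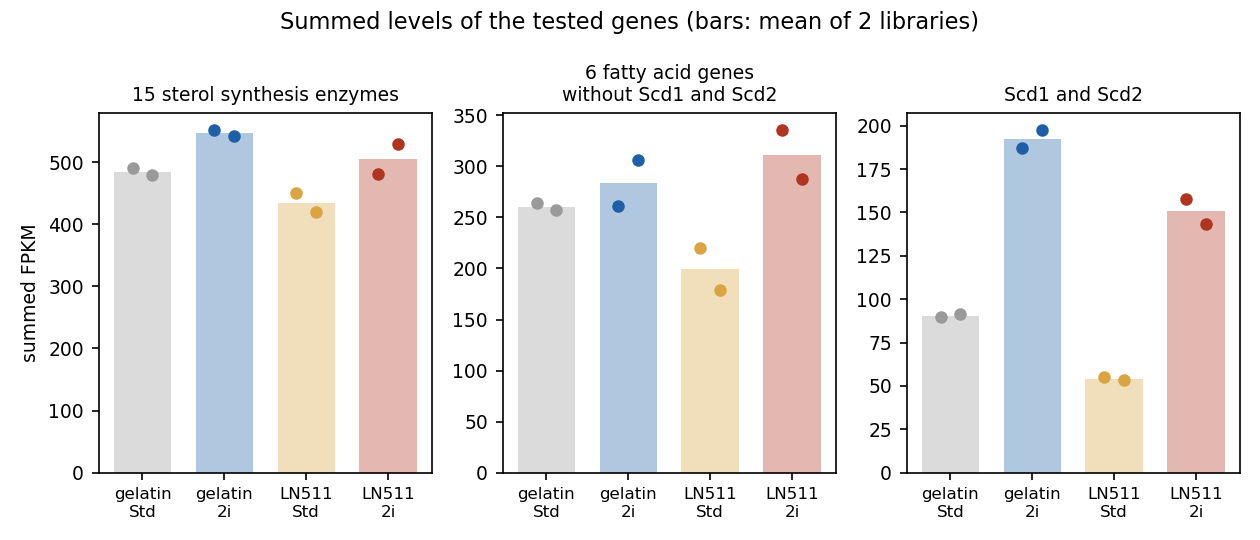
Summed FPKM of the 15 tested sterol synthesis enzymes (left), of the 6 tested fatty acid genes other than the desaturases Scd1 and Scd2 (middle), and of Scd1 and Scd2 (right), by coating and medium. Bars are means of 2 libraries and points are the libraries. The desaturase sum runs from 53.4 FPKM in LN511 Std to 197 in gelatin 2i, while the sterol enzyme sum runs from 420.0 to 551.

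**Figure D4:**
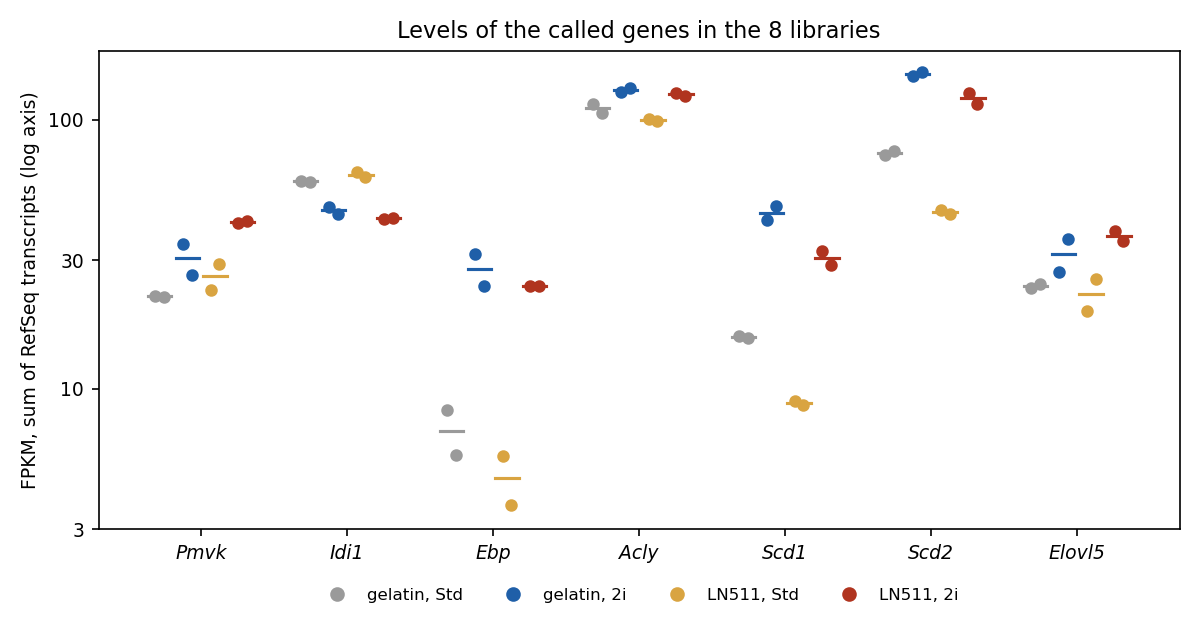
FPKM (log axis) of the 7 genes called in at least 1 comparison of 2 groups, in the 8 libraries, coloured by coating and medium, with points for libraries and lines for the mean of 2. Ebp, Scd1 and Scd2 are higher and Idi1 is lower in all 2i libraries than in all Std libraries, and Scd1 and Scd2 are lower on LN511 than on gelatin within each medium.

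0 of the 6 control and transport genes were called in any comparison with limma. At an unadjusted p under 0.05, Scap was higher in 2i on gelatin (15.4% of all genes were) and on LN511 in Std (9.78% of all), and Insig1 was lower on LN511 in Std (6.07% of all) and in 2i. Srebf2, which encodes the SREBP that chiefly drives sterol genes, stood on gelatin at 47.1 and 37.4 FPKM in Std and at 51.9 and 36.4 in 2i, and on LN511 at 56.8 and 55.0 in Std and at 36.1 and 55.8 in 2i. Its media overlapped on both coatings. Srebf1, which encodes the SREBP that chiefly drives fatty acid genes, had a lower level, at 4.37 and 7.96, 12.8 and 4.66, 12.1 and 11.2, and 11.8 and 11.2 FPKM, and it shares its locus with Rai1. The log2 difference between the media was 0.05 ± 0.25 on gelatin and -0.31 ± 0.25 on LN511 for Srebf2, with a 95% interval of -0.54 to 0.64 on gelatin, so a change of up to about that size cannot be told from 0.

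Insig1, itself an SREBP target that retains the SCAP complex, stood on gelatin at 37.0 and 46.9 FPKM in Std and at 50.9 and 51.5 in 2i, and on LN511 at 31.2 and 27.9 in Std and at 36.2 and 34.4 in 2i. It was lower on LN511 than on gelatin in each medium with no overlap. The log2 coating difference was -0.49 ± 0.14 in Std and -0.53 ± 0.14 in 2i, not called by limma (adjusted p = 0.155 and 0.246). Insig2, of the same family, had a lower level, 4.47 to 7.86 FPKM over the libraries, and was not called.

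Scap stood on gelatin at 0 and 4.53 FPKM in Std and at 10.5 and 9.68 in 2i, and on LN511 at 10.2 and 11.0 in Std and at 5.52 and 7.68 in 2i. Its 2 transcripts were listed at 0 in 3 and 3 of the 8 libraries, so its log2 difference of 2.23 ± 0.71 on gelatin (adjusted p = 0.0836) rests on values that may be failed estimates. Without gelatin Std replicate 2, which leaves the library at 0 as the only control, Scap was called on gelatin (adjusted p = 0.00571). Stard4, a sterol carrier, stood at 5.21 and 6.09, 4.62 and 0, 0 and 4.95, and 3.65 and 0 FPKM and gave an interval too wide to read.

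Between the coatings in Std medium the 2 desaturases were called lower on LN511, and no other of the 29 tested genes was called. Scd1 was 0.568 times and Scd2 0.605 times as high on LN511 as on gelatin in Std, log2 differences of -0.75 ± 0.13 and -0.71 ± 0.08 (limma adjusted p = 0.0447 and 0.0135, lower in both libraries). This made 2 of 29 lower where 0.564% of all genes were, and 0 higher where 1.54% were. Neither call was firm: that of Scd1 was lost in 8 of 8 fits without a library (adjusted p 0.0596 to 0.17) and that of Scd2 in 4 of 8 (up to 0.0928). Both were lost when only the 2 groups were fitted (0.146 for Scd1 and 0.0749 for Scd2), and Scd1 with the replicate number as a block (0.0932).

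In 2i medium the same genes were lower on LN511 without overlap, Scd1 at 0.682 times and Scd2 at 0.814 times the gelatin level, with log2 differences of -0.54 ± 0.13 and -0.30 ± 0.08 that were not called (adjusted p = 0.226 and 0.262). 0 of the 29 genes were called between the coatings in 2i with limma, where 0.0195% of all genes were called in either direction. At an unadjusted p under 0.05, 5 of the 29 were lower (Lss, Msmo1, Scd1, Scd2 and Insig1), where 5.44% of all genes were, and 1 was higher (Pmvk), where 6.51% were. Averaged over the media, a comparison added after the data were seen, Scd1 and Scd2 were called lower, at -0.64 ± 0.09 and -0.50 ± 0.06 (adjusted p = 0.0344 and 0.0156), and with the replicate number as a block neither was (0.0805 and 0.0548). That is 2 of 29 lower where 0.321% of all genes were, and 0 higher where 0.856% were. The averaged call of Scd1 was lost in every fit that left out 1 library, and that of Scd2 in most of them. The log2 differences in these fits ran from -0.686 to -0.604 for Scd1 and from -0.536 to -0.473 for Scd2.

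Many sterol enzymes lay lower on LN511 by amounts that did not pass the test. In Std 8 of the 15 were lower in both LN511 libraries than in both gelatin libraries and 3 were higher, and in 2i 10 were lower and 1 higher. Over the 29 genes 15 were lower without overlap in Std (20.7% of all genes were) and 6 higher (28.7% of all), and in 2i 16 were lower (20.7% of all) and 3 higher (22.2% of all). Msmo1 stood on gelatin at 48.6 and 46.7 FPKM in Std and at 51.4 and 51.3 in 2i, and on LN511 at 40.2 and 33.6 in Std and at 39.1 and 42.6 in 2i. Its coatings did not overlap in either medium, with log2 differences of -0.37 ± 0.12 in Std and -0.33 ± 0.12 in 2i (adjusted p = 0.201 and 0.352). The median log2 coating difference of the 15 enzymes was -0.19 in Std and -0.18 in 2i, beside 0.05 and 0.00 over all tested genes. For the 8 fatty acid genes the medians were -0.41 in Std, where 0 of 8 were above 0, and -0.05 in 2i.

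**Figure D5:**
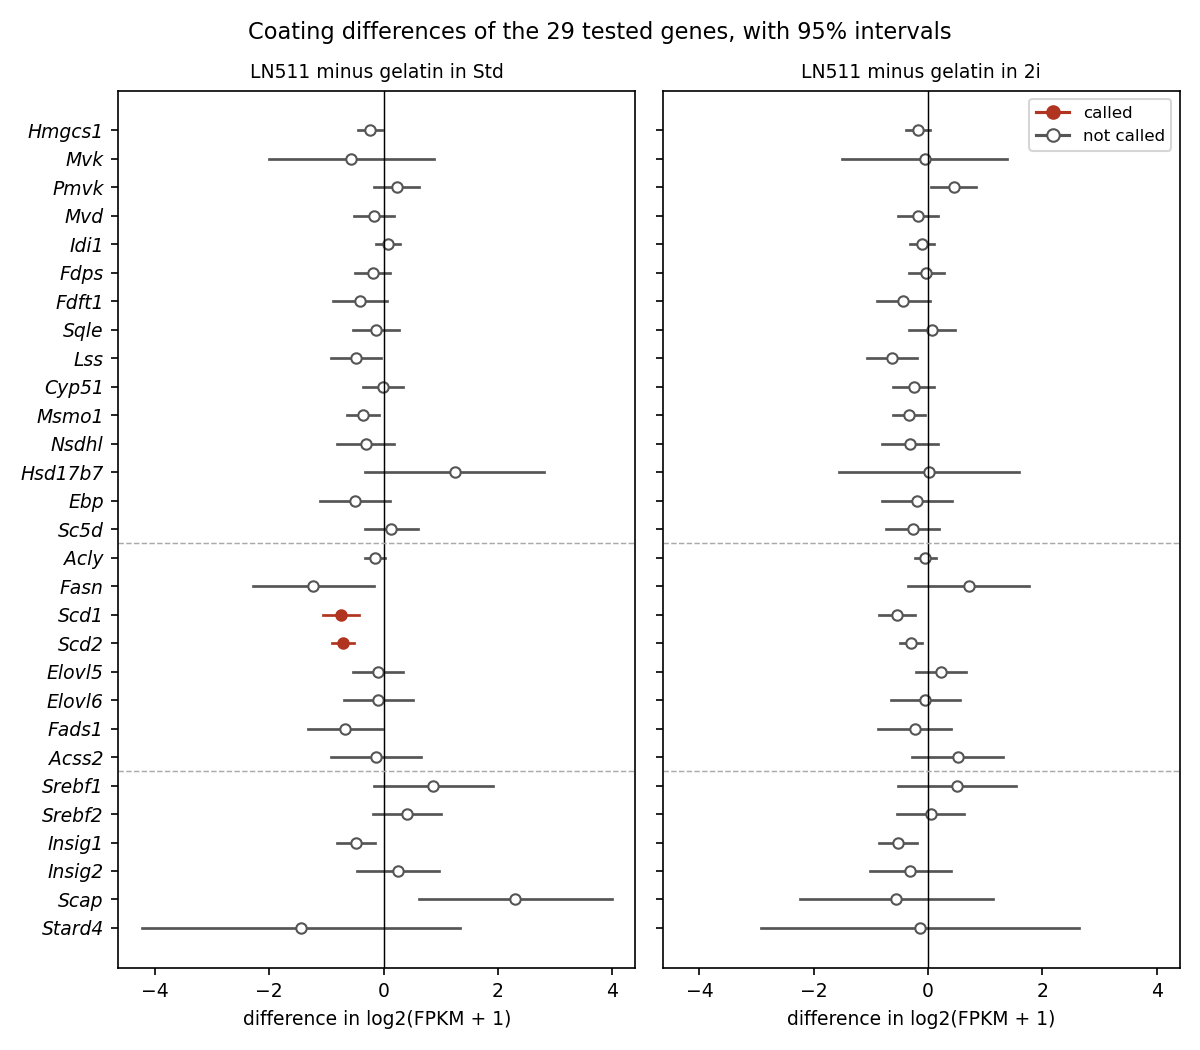
Differences in log2(FPKM + 1) between LN511 and gelatin for the 29 tested genes, in Std (left) and 2i medium (right), grouped and drawn as for the media, with 95% intervals from limma and filled red points where called. Scd1 and Scd2 are called in Std, at -0.75 and -0.71, and no gene is called in 2i.

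Whether the medium acted differently on the coatings was tested by the interaction of coating and medium. 0 of the 29 genes were called with limma, where 0.185% of all genes were, and at an unadjusted p under 0.05 Fasn and Scd2 were higher (4.79% of all genes were) and Scap was lower (7.38% of all). The interaction, as the medium difference on LN511 minus that on gelatin, was 0.42 ± 0.12 for Scd2, 0.21 ± 0.19 for Scd1, 0.30 ± 0.37 for Ebp and 1.94 ± 0.63 for Fasn (adjusted p = 0.244, 0.688, 0.786 and 0.302). The calls of Pmvk, Acly and Elovl5 on LN511 alone are therefore not shown to differ from gelatin. All 8 tested fatty acid genes had an interaction above 0, with a median of 0.38, and the 15 sterol enzymes had a median of -0.01, beside -0.04 over all tested genes. The LN511 Std libraries enter this interaction, the medium difference on LN511 and the coating difference in Std. The directions of the fatty acid genes in these are therefore not separate results.

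Among genes of sterol and isoprenoid synthesis outside the 33, Acat2 and Erg28 were called higher and Lbr lower in 2i on each coating. Acat2, the cytosolic thiolase at the start of the pathway, stood on gelatin at 30.3 and 29.2 FPKM in Std and at 75.8 and 87.8 in 2i, and on LN511 at 28.8 and 31.7 in Std and at 43.3 and 49.7 in 2i, with log2 differences of 1.43 ± 0.12 and 0.60 ± 0.12 (limma adjusted p = 0.00105 and 0.0196). Erg28, a scaffold of the C4 demethylation enzymes, was also higher, at 0.86 ± 0.21 and 0.88 ± 0.21 (adjusted p = 0.0364 and 0.0295). Lbr, a C14 reductase of the nuclear membrane, was lower, at -0.45 ± 0.10 on gelatin and -0.94 ± 0.10 on LN511 (adjusted p = 0.0312 and 0.00191).

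Of 6 tested genes of SREBP processing and turnover, Mbtps1, the site-1 protease, was higher in 2i on gelatin, at 0.49 ± 0.10 (adjusted p = 0.0248), and 0 were called on LN511. Of 8 tested genes of sterol uptake, storage and efflux, 2 were higher and 2 lower on gelatin, and 1 was higher and 1 lower on LN511. Over all genes 8.2% were higher and 7.2% lower on gelatin, and 8.58% and 9.95% on LN511. Npc2, which carries cholesterol out of lysosomes, was higher in 2i by 1.41 ± 0.12 and 1.45 ± 0.12. Soat1, which stores cholesterol as esters, was lower by -1.74 ± 0.24 and -1.52 ± 0.24 on the log2 scale (adjusted p = 0.00548 and 0.00771). Stard3 of the same list was the 1 gene of these lists called between the coatings, higher on LN511 in Std by 1.22 ± 0.22 (adjusted p = 0.0479).

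Of 13 other tested genes of fatty acid synthesis and activation, 3 were higher and 2 lower in 2i on gelatin, and 1 was higher and 5 lower on LN511, beside 8.2% and 7.2% over all genes on gelatin and 8.58% and 9.95% on LN511. Acsl5, an acyl-CoA synthetase, stood on gelatin at 15.5 and 15.6 FPKM in Std and at 3.76 and 3.36 in 2i, and on LN511 at 18.7 and 20.5 in Std and at 3.11 and 3.17 in 2i, a log2 difference of -1.86 ± 0.18 and -2.31 ± 0.18 (limma adjusted p = 0.00155 and 0.000546). Mid1ip1, an activator of acetyl-CoA carboxylase, was lower in 2i on gelatin by -1.93 ± 0.19 on the log2 scale. On LN511 it stood at 20.4 and 20.1 FPKM in Std and at 4.12 and 5.70 in 2i. Acsl4 was lower in 2i on LN511 by -2.08 ± 0.34, and stood on gelatin at 9.31 and 19.3 FPKM in Std and at 5.41 and 5.21 in 2i. Among called genes of this list some were higher in 2i, such as Me1 on both coatings, and others were lower.

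Of 14 tested genes of fatty acid oxidation, the breakdown route, 4 were higher and 0 lower in 2i on gelatin, and 6 were higher and 2 lower on LN511, beside 8.2% higher and 7.2% lower over all genes on gelatin and 8.58% and 9.95% on LN511. Cpt1a, which admits fatty acids to mitochondria, stood on gelatin at 4.75 and 5.39 FPKM in Std and at 36.5 and 35.0 in 2i, and on LN511 at 6.37 and 4.91 in Std and at 23.1 and 11.6 in 2i. Its log2 difference was 2.60 ± 0.31 on gelatin and 1.40 ± 0.31 on LN511 (limma adjusted p = 0.00334 and 0.0248). Slc25a20, the carnitine carrier that acts after it, was higher by 2.43 ± 0.15 and 1.98 ± 0.15 (adjusted p = 0.000256 and 0.000505), larger values than those of Scd1 on the same scale. Acaa2, the thiolase of the last step, was higher in 2i on LN511 by 1.91 ± 0.23 (adjusted p = 0.00304). On gelatin it stood at 9.59 and 5.98 FPKM in Std and at 13.8 and 13.6 in 2i. The median log2 difference of this list was 0.33 on gelatin and 0.14 on LN511.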

How the data were processed

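RNA of 8 libraries of Bruce 4 mouse embryonic stem cells was measured, 2 for each coating and medium. The authors deposited FPKM values for genes and for transcripts, a column per library. TopHat2 2.1.1, Cufflinks 2.1.1 and mm10 were used, per the submitters' processing notes. Their settings, strandedness and any scaling were not given in the sources used here, so reads of overlapping and antisense genes cannot be told apart.

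A gene's value is the sum of its RefSeq transcripts, since 47.3% of values of at least 1 FPKM are 0 in the gene table. Of 32688 RefSeq transcripts 31786 matched a symbol (GRCm38.p6), and 21844 assembled rows were left out. Genes with 1 FPKM in 2 libraries (11244) were kept, less 966 with doubtful zeros (a replicate at 0 beside 5 FPKM or more, or a group at 0 beside a group mean of 5 or more). limma 3.58.1 in R 4.3.3 (trend, log2(FPKM + 1), 1 mean per group, 4 residual degrees of freedom) was tested on simulated data. The alternatives were a pseudocount of 0.1, no filter, doubtful zeros kept, quantile normalization, the gene table, the highest single transcript, only 2 groups, a replicate block and leaving out each library. All 33 genes were named. From the other pathway lists, up to 2 called genes of highest absolute difference per list and comparison were named, and Me1 besides, after its values were seen. Some genes of these lists are not reported here. The genes and lists were chosen with earlier results of these data known.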

Additional observations from a re-analysis of the deposited data

How the results depend on the processing

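No call changed direction under any setting. The medium calls of Ebp and Scd1 held in every alternative on both coatings, and those of Scd2 in every alternative that gave it a value. The deposited gene table, in which only 4 of the 33 genes passed the filters, called 2 on gelatin, 2 on LN511 and 1 between the coatings in Std (4, 7 and 2 in the analysis reported), and 2 and 1 in the averaged medium and coating comparisons. It put the median of the sterol enzymes at 0.865 on gelatin, 0.463 on LN511, -0.588 for the coating in 2i and -0.402 for the interaction, each over 2 genes, and that of the fatty acid genes at 0.494 on gelatin. Fitting only the 2 groups compared, with fewer libraries, gave 4 calls on LN511 and 0 between the coatings in Std. The highest single transcript gave 1 call between the coatings in Std, that of Scd1 being lost although Scd1 has 1 transcript row and its difference was unchanged. Quantile normalization put the sterol median at -0.238 for the coating in Std and at 0.076 for the interaction. The causes were not tested.

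The replicate numbers do not pair the libraries: deviations of same-numbered libraries correlated at -0.02 to 0.019. With the replicate block, 1 call was left between the coatings in Std and 0 in the averaged coating comparison, and Idi1 on gelatin (adjusted p = 0.0712) and Pmvk (0.062) and Acly (0.0538) on LN511 were no longer called.

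Leaving out each library in turn, which leaves a group with 1 library assumed to vary like the others, gave 4 to 6 calls on LN511, 0 to 1 between the coatings in Std and 0 to 1 in the averaged coating comparison. The sterol median then ran from 0.156 to 0.223 on gelatin, 0.086 to 0.273 on LN511, -0.246 to -0.137 for the coating in Std and -0.039 to 0.067 for the interaction, and the fatty acid median for the coating in 2i from -0.212 to 0.192. Some genes that were not called passed when 1 library was left out: on gelatin Hsd17b7 (adjusted p = 0.0309) and Scap (0.00571), on LN511 Fdps (0.0345), Fasn (0.0391) and Fads1 (0.0461), and between the coatings in Std Scap (0.0322). Depth limits the low genes: values near 1 FPKM rest on few fragments.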
